A study of Mus musculus with 6 samples.

Results

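The 10 genes described here are the Notch receptors Notch1, Notch2, Notch3 and Notch4, the ligands Jag1, Jag2, Dll1 and Dll4, and the target genes Hey1 and Heyl. They were chosen by gene symbol from the 55487 genes of the table, and all 10 were among the 16565 genes tested. Bulk RNA-seq of aortas was performed in 3 Prdm16 iSM KO and 3 control male mice, and the comparison asks how deletion of Prdm16, a zinc finger transcription factor, in smooth muscle cells changes aortic transcripts. KO mice were Myh11-CreERT2+; Prdm16 F/F and controls, labelled WT, were Myh11-CreERT2+; Prdm16 W/W, so that both groups carried the tamoxifen-inducible Cre and the C57BL/6 background. Tamoxifen was injected into both groups from 8 weeks of age, at 1 mg per mouse per day for 10 days with a break of 2 days after the first 5 injections. Tamoxifen was then washed out for 2 weeks, and aortas were taken after 60 days more, which the labels call baseline. The Myh11 promoter confines Cre to smooth muscle, so that Prdm16 in other cells of the aorta was not targeted, and the adventitia was removed before RNA extraction.

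Notch receptors are single-pass membrane proteins that are activated by ligands on the neighbouring cell. Ligand binding exposes the receptor to ADAM proteases and then to gamma-secretase, and the released intracellular domain binds RBPJ in the nucleus to switch on genes of the Hes and Hey families of transcriptional repressors. In arteries, endothelial cells use Notch1, Notch4 and Dll4, smooth muscle cells use Notch2 and Notch3, and Jag1 passes the signal from endothelium to smooth muscle and between smooth muscle cells.

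Ligands of the Jagged and Delta-like families share the DSL domain, the cysteine-rich module that contacts the receptor. Its coding sequence is shown because the ligands responded differently and because it shows how far the transcripts of the family can be told apart. In each gene the stretch has 129 bases and lies within 1 coding exon (GRCm38, GENCODE M21). It is found at chr2:137101588-137101716 on the minus strand for Jag1 (codons 187 to 229), at chr12:112920238-112920366 on the minus strand for Jag2 (codons 198 to 240), at chr17:15373444-15373572 on the minus strand for Dll1 (codons 178 to 220) and at chr2:119328057-119328185 on the plus strand for Dll4 (codons 176 to 218). Capitals mark bases that differ from Jag1.
Jag1: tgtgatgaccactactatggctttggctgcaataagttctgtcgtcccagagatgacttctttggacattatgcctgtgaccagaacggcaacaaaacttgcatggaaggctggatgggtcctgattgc
Jag2: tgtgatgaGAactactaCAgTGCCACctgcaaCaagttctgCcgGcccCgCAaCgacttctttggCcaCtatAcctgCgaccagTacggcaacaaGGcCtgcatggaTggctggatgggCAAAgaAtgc
Dll1: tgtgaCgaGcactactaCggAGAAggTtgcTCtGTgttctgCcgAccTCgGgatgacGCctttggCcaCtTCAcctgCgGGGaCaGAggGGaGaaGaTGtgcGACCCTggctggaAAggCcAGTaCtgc
Dll4: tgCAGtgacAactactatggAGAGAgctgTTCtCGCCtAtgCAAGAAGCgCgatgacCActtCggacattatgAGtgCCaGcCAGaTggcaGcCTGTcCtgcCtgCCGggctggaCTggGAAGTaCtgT
Compared with Jag1, 31 bases differed in Jag2, 50 in Dll1 and 57 in Dll4. Jag1 and Jag2 were the most alike of the 6 pairs, with 76% of bases and 72.1% of the encoded residues identical. The least alike in bases were Dll1 and Dll4 (54.3%), and the least alike in residues were Jag2 and Dll4 (46.5%). Across whole transcripts, no member shared a stretch of at least 100 bases at 95% identity or more with another member.

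Members whose difference passed the test and whose start site is flanked by sequence outside the annotated gene are shown with that upstream stretch, taken from RefSeq (GRCm38.p6). These are Notch2 at chr3:98013288-98013526 on the plus strand, Notch3 at chr17:32166891-32167140 on the minus strand and Dll1 at chr17:15376933-15377182 on the minus strand. Capitals mark the GC box GGGCGG on either strand.
Notch2: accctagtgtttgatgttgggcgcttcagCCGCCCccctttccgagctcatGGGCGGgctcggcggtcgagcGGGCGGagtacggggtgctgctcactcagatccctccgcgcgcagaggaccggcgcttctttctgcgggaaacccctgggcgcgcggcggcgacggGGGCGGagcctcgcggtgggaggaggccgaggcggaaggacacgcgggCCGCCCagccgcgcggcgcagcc
Notch3: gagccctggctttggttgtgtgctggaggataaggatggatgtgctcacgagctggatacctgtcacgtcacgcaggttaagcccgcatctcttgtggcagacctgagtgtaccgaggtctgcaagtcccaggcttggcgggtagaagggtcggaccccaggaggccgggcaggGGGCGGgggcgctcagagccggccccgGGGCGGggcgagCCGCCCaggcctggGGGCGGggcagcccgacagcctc
Dll1: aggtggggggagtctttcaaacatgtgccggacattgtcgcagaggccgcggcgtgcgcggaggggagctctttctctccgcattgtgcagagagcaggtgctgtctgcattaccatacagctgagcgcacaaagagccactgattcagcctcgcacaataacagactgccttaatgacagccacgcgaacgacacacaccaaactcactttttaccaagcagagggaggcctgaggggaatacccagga
RefSeq promoter windows of 300 bases (250 before and 50 after the start) matched 8 of the 10 members, in 9 windows. The target genes Hey1 and Heyl had no window, so that their promoters were not searched for any of the motifs below. The GC box occurred 7 times in the window of Notch2, 5 times in those of Notch1 and Jag2, 4 times in that of Notch3, 2 times in that of Dll4 and 0 times in those of Jag1, Notch4 and Dll1, and 35.7% of 32851 RefSeq promoters held it. The RBPJ core TGGGAA, searched on both strands, was in 0 of the 9 windows and in 25.6% of all promoters. CACGTG, an E-box of the kind that Hey proteins bind, was in 0 of the 9 windows and in 7.15% of all promoters. A match of these letters is a description and not a measured binding site.

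Libraries held 24911609 to 40460467 counts, of which 59.0% to 67.6% fell on protein-coding genes, and control 3 had the lowest of both. Values are normalized counts (CPM), scaled to the total of each library with TMM factors, and log2 fold changes compare iSM KO with control, so that negative values mean lower in iSM KO. The deleted gene was checked first: Prdm16 had 183, 223 and 179 CPM in controls 1 to 3 and 93.8, 113 and 79.8 CPM in iSM KO mice 1 to 3 (log2 fold change −1.03, SE 0.14, adjusted p = 0.00265 in edgeR). The count covers the whole gene, of which exon 9 is deleted. Smooth muscle markers were abundant in every library, with Myh11 at 7431 to 9235 CPM. Adipocyte markers differed between controls, their sum being 4.90 CPM in control 1, 54.3 in control 2, 51.8 in control 3 and 2.24 to 4.76 CPM in the iSM KO libraries.

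Per kilobase of exon, which allows levels of different genes to be compared, Heyl and Notch2 were the most abundant of the 10 transcripts. In controls the order was Heyl (42.8 ± 7.84 CPM per kb, SD, n = 3), Notch2 (32.8 ± 1.27), Jag1 (13.3 ± 2.10), Notch3 (12.1 ± 0.99), Notch1 (4.35 ± 1.36), Dll1 (3.13 ± 1.24), Notch4 (2.63 ± 0.84), Jag2 (1.78 ± 0.23), Hey1 (1.21 ± 0.21) and Dll4 (0.81 ± 0.26). Neighbours in this order overlapped between Jag1 and Notch3 and all along the run from Notch1 through Dll1 and Notch4 to Jag2. In iSM KO aortas the order was Notch2 (43.7 ± 5.54 CPM per kb, SD, n = 3), Heyl (42.3 ± 5.10), Jag1 (12.4 ± 0.80), Notch3 (9.52 ± 0.31), Notch1 (3.28 ± 0.98), Notch4 (1.96 ± 0.73), Dll1 (1.34 ± 0.40), Hey1 (1.31 ± 0.11), Dll4 (0.46 ± 0.29) and Jag2 (0.44 ± 0.15). Here the ranges of Notch2 and Heyl overlapped, so that their order in iSM KO aortas is not resolved. Neighbours also overlapped all along the run from Notch1 through Notch4 and Dll1 to Hey1. Jag2 thus stood last in iSM KO aortas, where its range overlapped that of Dll4, and eighth in controls, where it did not. The pair used by smooth muscle, Notch2 and Notch3, made up 82.8% to 92.6% of the summed receptor transcripts per kb of a library.

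**Figure D1:**
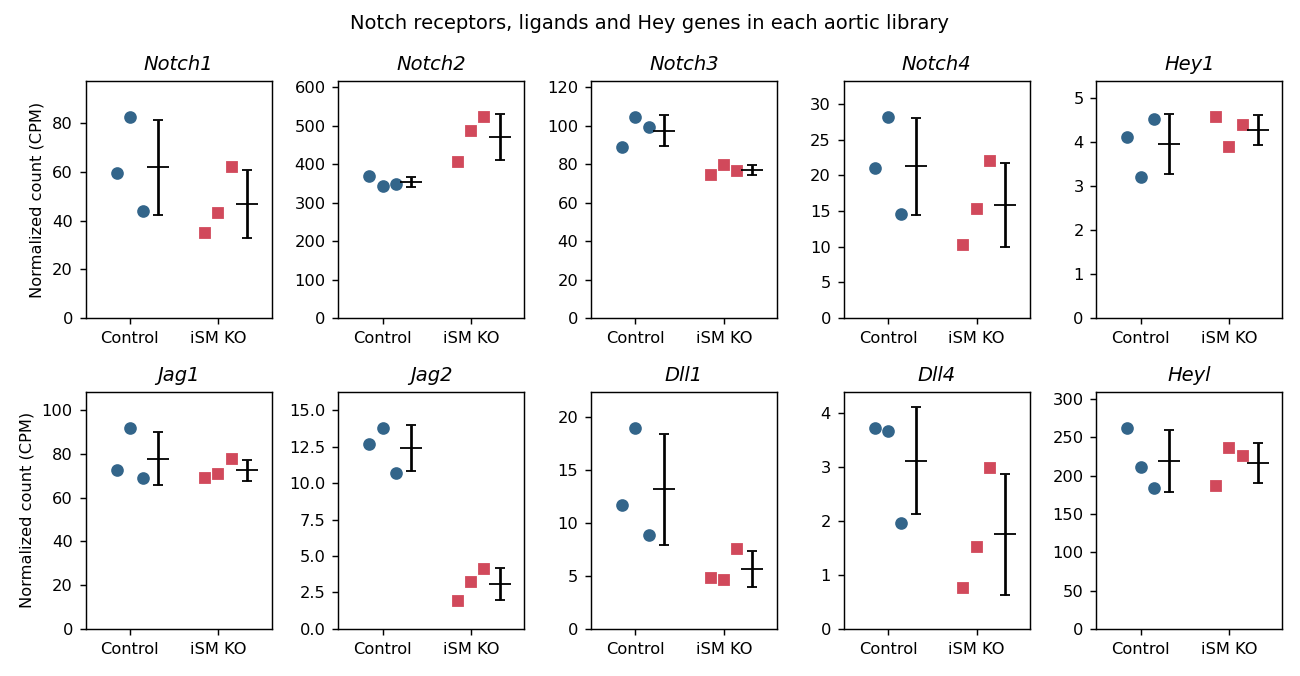
Normalized counts (CPM, linear axes from 0) of the 10 genes in each library, with circles for the 3 controls and squares for the 3 iSM KO aortas, in the order of the replicate numbers from left to right, and the mean ± SD beside them. The groups are apart for Notch2, which is higher in iSM KO, and for Notch3, Jag2 and Dll1, which are lower, and the other 6 genes overlap.

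Of the 10 genes, 1 was higher in iSM KO aortas at an adjusted p under 0.05 (Notch2) and 3 were lower (Notch3, Jag2 and Dll1), by edgeR's quasi-likelihood test, with p-values adjusted by the Benjamini-Hochberg method over all tested genes. Among all tested genes, 4.26% were called higher and 3.3% lower. With a fold change over 2 in addition, 2 members were lower (Jag2 and Dll1) and 0 higher, against 1.38% and 1.4% of all tested genes. The same 4 genes had groups without overlap, 1 higher and 3 lower, a pattern shown by 15% (higher) and 13% (lower) of all tested genes. The median log2 fold change was −0.37 over the 10 members and −0.01 over all tested genes. Replicates are separate mice, and p-values measure the spread between these 6 animals.

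Receptors moved in different directions. Notch2, a receptor of smooth muscle cells (chr3:98013527-98150361, plus strand), had 370, 344 and 349 CPM in controls 1 to 3 and 406, 486 and 523 CPM in iSM KO mice 1 to 3. Each iSM KO library was above each control, and controls varied less (CV 3.88%) than iSM KO mice (12.7%). The log2 fold change of Notch2 was 0.41 (SE 0.11, 95% interval 0.17 to 0.65, adjusted p = 0.0480 in edgeR), a rise of 1.33-fold. The adjusted p lay just inside the threshold, was 0.0508 with edgeR's filterByExpr and ranged from 0.0765 to 0.196 on leaving out control 1, 2 or 3 or iSM KO 2 or 3. Of 6 alternative fits that kept all libraries, the endothelial covariate apart, 4 called Notch2. DESeq2 did (adjusted p = 0.00302), and edgeR with the replicate number as a block did not (0.112). Gm42819, a transcript of unknown class annotated on the same strand within the Notch2 gene and sharing no exon with it, had 4.54, 3.49 and 4.32 CPM in controls and 7.61, 8.31 and 5.69 CPM in iSM KO mice (log2 fold change 0.81, adjusted p = 0.0306 in edgeR), and was picked after its values were seen. Gm42820, which covers 5.02% of the Notch2 exon bases on the same strand, had 3.36 ± 0.69 CPM in controls and 3.92 ± 0.15 in iSM KO (SD, n = 3), with an adjusted p of 0.545 in edgeR.

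Notch3, the receptor most closely tied to arterial smooth muscle (chr17:32120820-32166852, minus strand), had 88.7, 104 and 99.4 CPM in controls and 74.7, 79.7 and 76.7 CPM in iSM KO mice. Every iSM KO library was below every control, in a narrow band (CV 3.30%). Notch3 fell by 0.34 on the log2 scale (SE 0.08, 95% interval −0.53 to −0.15, adjusted p = 0.0397 in edgeR). The call was lost on leaving out control 2 or 3 or any iSM KO mouse (adjusted p 0.0719 to 0.156), with values from −0.40 to −0.29 over all 6 omissions. Of the same 6 alternative fits to all libraries, 5 called Notch3, with an adjusted p of 0.0128 in DESeq2. The replicate block in edgeR did not (0.0827).

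Notch1, which is used by endothelial cells among others (chr2:26457903-26516663, minus strand), had 59.4, 82.4 and 43.8 CPM in controls and 35.0, 43.1 and 62.1 CPM in iSM KO mice. Both groups spread widely and overlapped, with control 2 highest and iSM KO 1 lowest. Notch1 had a log2 fold change of −0.41 (SE 0.25, 95% interval −0.97 to 0.15, adjusted p = 0.371 in edgeR). It rested on single libraries, at −0.15 without control 2, −0.24 without iSM KO 1 and −0.67 without iSM KO 3. In bulk tissue, fewer cells of a type and less RNA per cell cannot be told apart.

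Notch4, a receptor largely restricted to endothelium (chr17:34564268-34588503, plus strand), had 20.96, 28.1 and 14.6 CPM in controls and 10.2, 15.2 and 22.0 CPM in iSM KO mice. It ranked the 3 libraries of each group as Notch1 did, and the groups overlapped. Notch4 had a log2 fold change of −0.43 (SE 0.29, 95% interval −1.09 to 0.22, adjusted p = 0.416 in edgeR). Leaving out control 2 gave −0.18, leaving out iSM KO 1 gave −0.20 and leaving out iSM KO 3 gave −0.75.

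Among ligands, Jag2 changed most and Jag1 was the most abundant. Jag2 (chr12:112907819-112929776, minus strand), a Jagged ligand of endothelial and other cells, had 12.7, 13.8 and 10.7 CPM in controls and 1.94, 3.21 and 4.08 CPM in iSM KO mice. The highest iSM KO library was below the lowest control, and the lowest level was in iSM KO 1. These levels rest on 255 to 530 reads in controls and 79 to 149 in iSM KO mice, for which counting error alone gives a CV of 4.98% and 9.39%, against observed CVs of 12.7% and 35.0%. The log2 fold change of Jag2 was −2.02 (SE 0.24, 95% interval −2.56 to −1.47, adjusted p = 0.00155 in edgeR), so that controls had 4.05-fold more. It passed the threshold without any 1 of the 6 libraries, with values from −2.28 to −1.77. No other gene shares exon bases with Jag2 in the annotation, and an intronic miRNA gene within it was at 0 in every library.

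Dll1, a Delta-like ligand (chr17:15367354-15376872, minus strand), had 11.7, 19.0 and 8.85 CPM in controls and 4.81, 4.58 and 7.58 CPM in iSM KO mice. The groups did not overlap, but the gap between control 3 and iSM KO 3 was small beside the spread of the controls, whose highest value was in control 2. The log2 fold change of Dll1 was −1.23 (SE 0.29, 95% interval −1.89 to −0.57, adjusted p = 0.0360 in edgeR), so that controls had 2.35-fold more. Without control 2 it was −0.87 (adjusted p = 0.0690 in edgeR), and the call was also lost without control 1 (0.0719), iSM KO 1 (0.121) or iSM KO 2 (0.142). Dll1 was called in 5 of the 6 alternative fits to all libraries, with an adjusted p of 0.000178 in DESeq2, and not with the replicate block in edgeR (0.0911). An antisense gene, A930024N18Rik, covers 20.5% of the Dll1 exon bases and was not analysed here, and whether counting used the strand is not given in the sources used here, so that reads of the overlapping bases cannot be assigned with certainty. Antisense genes also cover exon bases of Notch1 (0610009E02Rik, 7.5% of them, and Gm13568, 2.91%), Notch3 (Gm17276, 6.03%) and Dll4 (Gm14207, 5.56%), and each of these had a mean under 1 CPM in both groups.

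Dll4, the Delta-like ligand of arterial endothelium (chr2:119325784-119335962, plus strand), had 3.73, 3.67 and 1.97 CPM in controls and 0.76, 1.52 and 2.98 CPM in iSM KO mice. The groups overlapped, since iSM KO 3 was above control 3. Dll4 had a log2 fold change of −0.85 (SE 0.45, 95% interval −1.86 to 0.16, adjusted p = 0.304 in edgeR), an interval that holds no change as well as a fall as large as that of Dll1. Without iSM KO 1 the value was −0.48 and without iSM KO 3 it was −1.48 (adjusted p = 0.0685 in edgeR). Counts of 31 to 141 reads lay behind Dll4.

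Jag1, the main Notch ligand of the arterial wall (chr2:137081456-137116644, minus strand), had 72.4, 91.8 and 69.1 CPM in controls and 68.8, 70.8 and 77.7 CPM in iSM KO mice. The groups overlapped, with control 2 above the rest. The log2 fold change of −0.10 (SE 0.11, adjusted p = 0.634 in edgeR) had a 95% interval of −0.36 to 0.15, so that a change beyond 1 on the log2 scale lay outside it.

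Neither Hey gene passed the test. Heyl, a repressor expressed in vascular smooth muscle and induced by Notch3 (chr4:123233556-123249875, plus strand), had 262, 211 and 183 CPM in controls and 187, 237 and 225 CPM in iSM KO mice. The iSM KO values lay within the range of the controls. For Heyl the log2 fold change was −0.02 (SE 0.14, 95% interval −0.33 to 0.30, adjusted p = 0.958 in edgeR).

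Hey1, a related repressor with a role in arterial identity (chr3:8663359-8667256, minus strand), had 4.12, 3.20 and 4.53 CPM in controls and 4.56, 3.90 and 4.38 CPM in iSM KO mice. The groups overlapped. For Hey1 the log2 fold change was 0.12 (SE 0.18, 95% interval −0.28 to 0.53, adjusted p = 0.725 in edgeR). Per kb, Heyl exceeded Hey1 by 25.9-fold to 42.1-fold in every library, whichever the group.

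**Figure D2:**
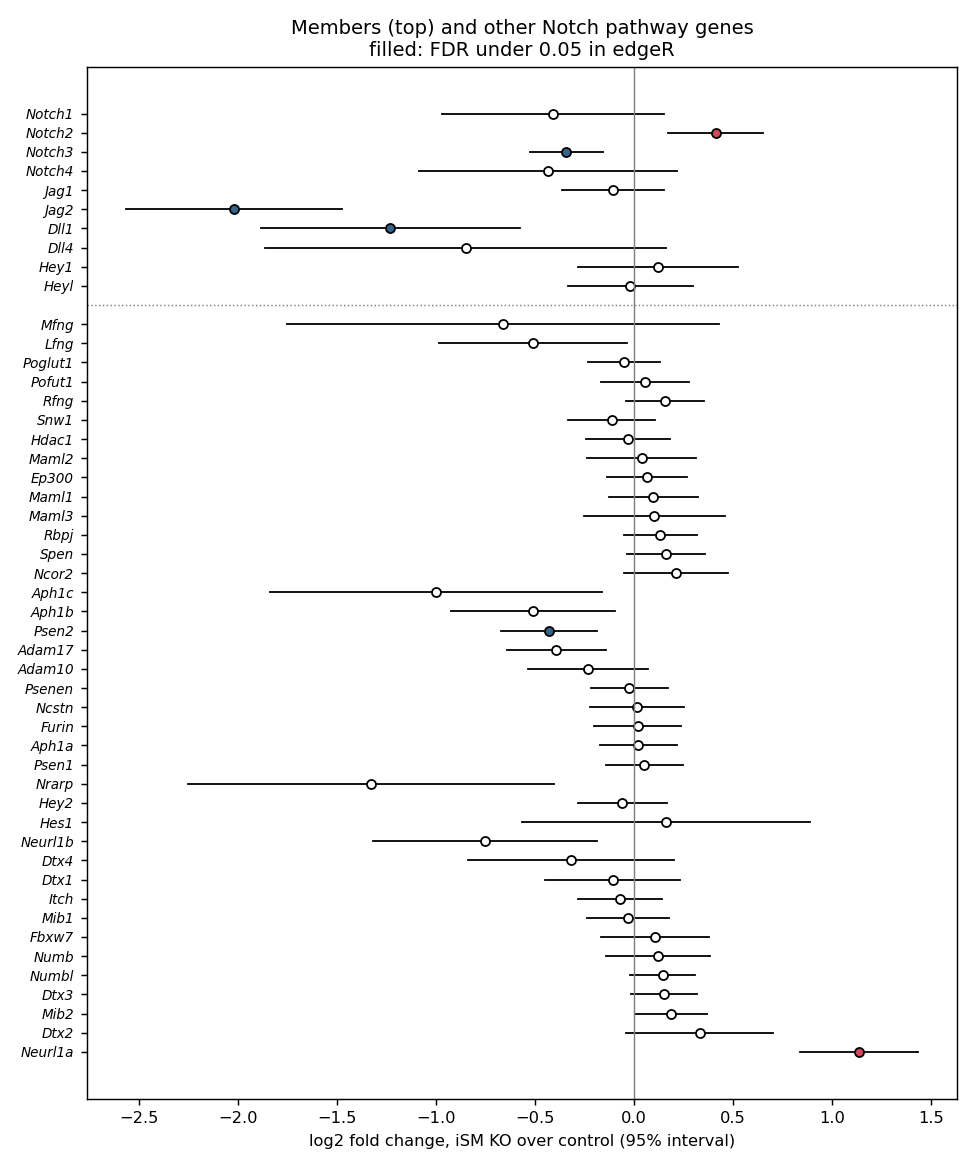
Log2 fold change of iSM KO over control with its 95% interval for the 10 genes (above the dotted line) and 39 tested genes of the pathway (below it), filled where the adjusted p in edgeR is under 0.05. Notch2 and Neurl1a lie to the right, and Notch3, Jag2, Dll1 and Psen2 to the left, while most intervals below the line span 0.

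The make-up of the receptor and ligand transcripts was compared within each library, which removes the scaling between libraries. Of the summed receptor CPM per kb, Notch2 took 65.9%, 58.9% and 65.3% in controls 1 to 3 and 74.4%, 75.3% and 74.5% in iSM KO mice 1 to 3. The Notch3 share was 21.1%, 23.9% and 24.8% in controls and 18.2%, 16.5% and 14.6% in iSM KO mice. Both shares separated the groups, while those of Notch1 (8.32% ± 2.26 and 5.54% ± 1.01, SD, n = 3) and Notch4 (5.04% ± 1.39 and 3.28% ± 0.85) overlapped.

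Jag1 took 69.1%, 67.9% and 74.1% of the summed ligand CPM per kb in controls and 88.0%, 86.2% and 80.9% in iSM KO mice. The Jag2 share was 10.1%, 8.54% and 9.59% in controls and 2.07%, 3.27% and 3.55% in iSM KO mice. Dll1 took 15.4%, 19.4% and 13.1% in controls and 8.49%, 7.71% and 10.9% in iSM KO mice. These 3 shares separated the groups, and that of Dll4 (4.23% ± 1.10 and 2.99% ± 1.62, SD, n = 3) overlapped. Exact two-sided permutation tests gave p = 0.1 for each of the 5 shares that separated the groups, the smallest value that 3 against 3 can give, and 0.16 after adjustment over 8 shares. For Notch1, Notch4 and Dll4 the exact p was 0.2, 0.2 and 0.4. With the longest transcript as gene length in place of summed exon bases, the same 5 shares separated the groups. In that setting the Notch1 share in controls was 11.6% instead of 8.32%. The Jag2 difference, iSM KO minus control, was −7.96 instead of −6.45 percentage points. Shares within a library sum to 100%, so that a lower share of one gene raises those of the others. The separated shares restate the levels of Notch2, Notch3, Jag2 and Dll1, which were already apart, and are no further evidence.

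**Figure D3:**
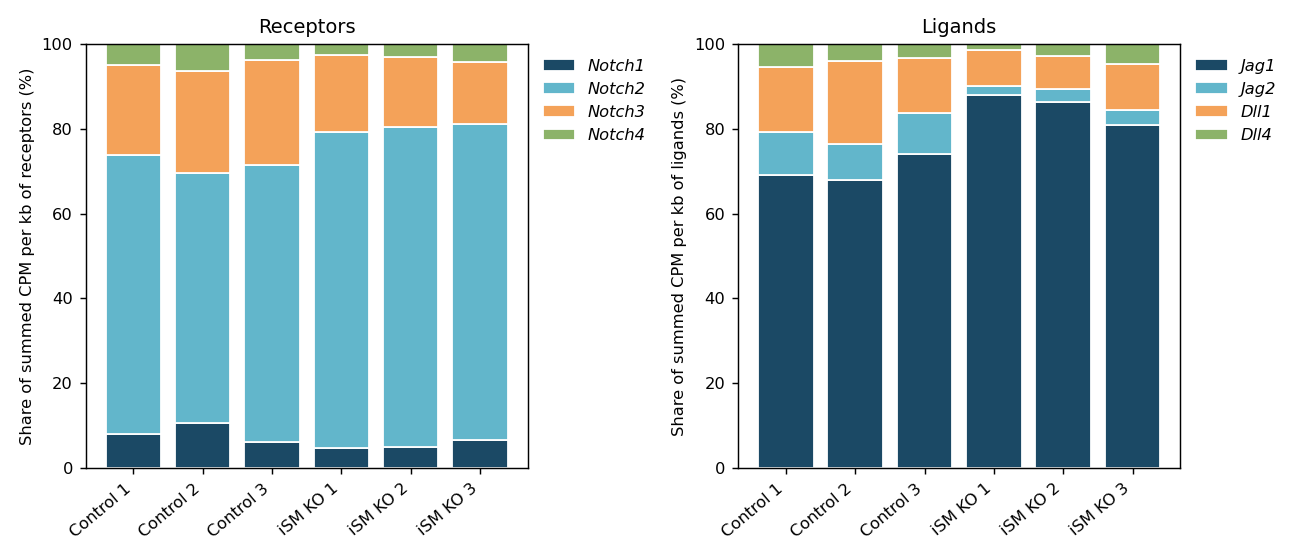
Share (%) of each gene in the summed CPM per kb of the 4 receptors (left) and the 4 ligands (right), 1 bar per library. Notch2 reaches 58.9% to 65.9% in controls and 74.4% to 75.3% in iSM KO aortas, and Jag1 67.9% to 74.1% and 80.9% to 88.0%.

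The ratio of 2 genes of one class is also free of scaling. Notch2 over Notch3, as a ratio of CPM without length correction, was 4.16, 3.29 and 3.51 in controls and 5.44, 6.09 and 6.81 in iSM KO mice. The log2 ratio rose by 0.74, from 1.86 ± 0.18 to 2.61 ± 0.16 (SD, n = 3, exact two-sided permutation p = 0.1, the smallest possible). Jag1 over Jag2 was 5.71, 6.66 and 6.46 in controls and 35.5, 22.1 and 19.1 in iSM KO mice, and its log2 ratio was 2.65 ± 0.12 and 4.62 ± 0.47 (SD, n = 3, exact p = 0.1). Both ratios separated the groups completely, and adjustment over the 2 ratios left p at 0.1. Notch2 was already higher and Notch3 already lower without overlap, so that their ratio had to separate the groups and is no further evidence. Jag2 was already lower without overlap and Jag1 differed little (log2 fold change −0.10). The ratio of Jag1 to Jag2 thus restates the fall of Jag2 and is no further evidence either.

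Several of these genes ranked the libraries of each group as the markers of endothelial cells did. Their defining markers Pecam1 (311, 332 and 176 CPM in controls and 88.7, 173 and 275 in iSM KO) and Cdh5 (51.0, 66.4 and 23.6 CPM in controls and 16.1, 31.2 and 46.9 in iSM KO) did not pass the test, with adjusted p of 0.368 and 0.438 in edgeR. All 10 endothelial markers had a log2 fold change below 0, 0 passed the test, and 1 (Erg, chosen for this after its values were seen) had groups without overlap. Of all tested genes, 13% were lower in iSM KO without overlap, and 8679 of 16565 had a log2 fold change below 0. Markers of one cell type can move together, so that 10 of them are not 10 separate observations. The sum of the endothelial markers was 948, 1123 and 575 CPM in controls 1 to 3 and 320, 526 and 856 CPM in iSM KO mice 1 to 3. Libraries of each group ranked by Notch1, Notch4, Jag1 and Jag2 stood in the order of this sum, as they did for 8 of the 10 markers themselves, and for the other 6 members they did not. How many of all tested genes share this order was not counted, so that it cannot be read as particular to these genes. Fibroblast markers, with a sum of 151 to 328 CPM in controls and 127 to 187 CPM in iSM KO, were lower for 6 of 6 genes, of which 0 passed. Leukocyte markers summed to 2.75 to 7.91 CPM over all libraries. The part of fibroblasts, leukocytes and adipocytes in these results was not tested.

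**Figure D4:**
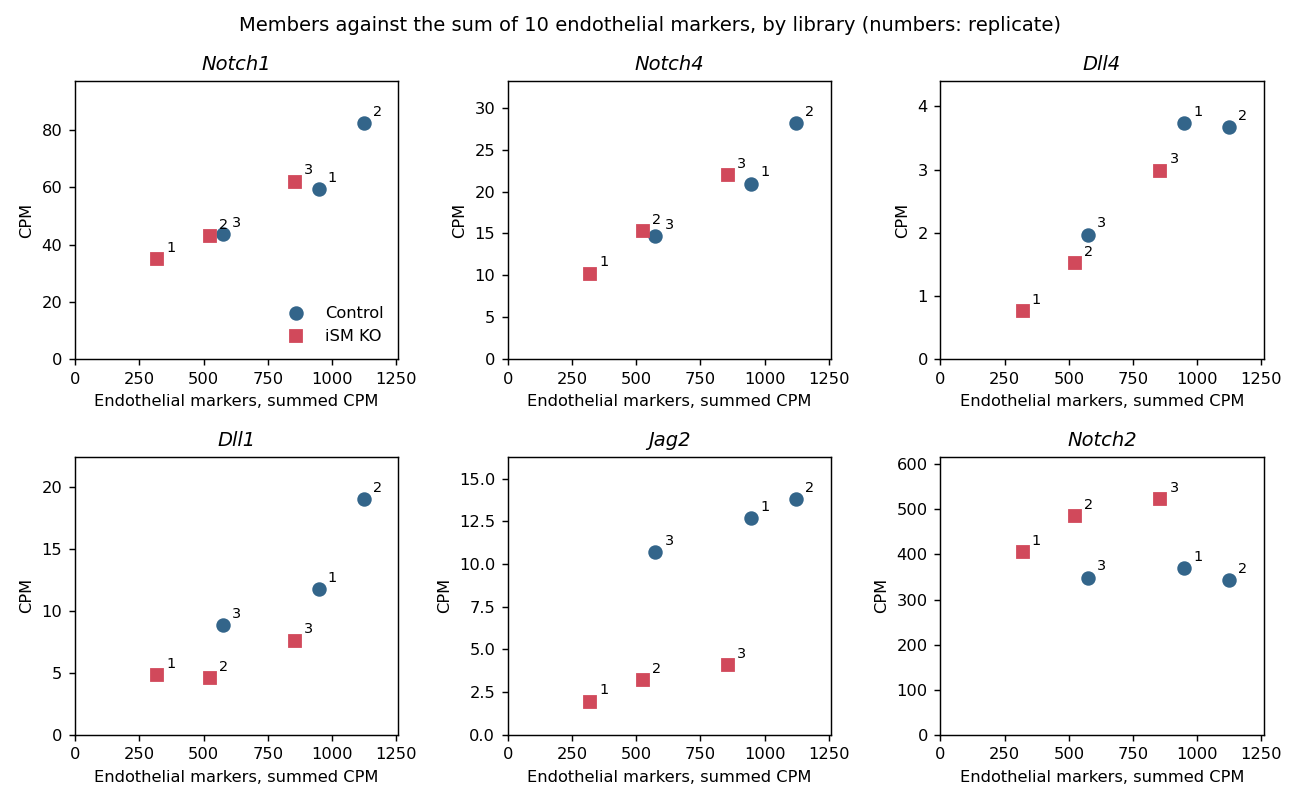
CPM of 6 of the genes against the summed CPM of 10 endothelial markers in each library, with circles for controls, squares for iSM KO and numbers for replicates, on linear axes from 0. The iSM KO points of Jag2 lie below and those of Notch2 above all control points, while Notch1, Notch4 and Dll4 of both groups lie along one band. The marker sums of the groups overlap only in part. Those of iSM KO 1 and 2 are below every control, and those of controls 1 and 2 are above every iSM KO library.

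Jag2 and Dll1 were also set against the endothelial markers within each library. The marker sum was lower on average in iSM KO mice (882 ± 280 and 567 ± 271 CPM, SD, n = 3), so that the ratio of a gene at an equal level is higher there by construction, as for Heyl (261 ± 66.9 and 433 ± 161 per 1000 CPM of the markers). Jag2 per 1000 CPM of these markers was 13.4, 12.3 and 18.6 in controls and 6.05, 6.11 and 4.76 in iSM KO mice, lower without overlap. Dll1 was 12.4, 16.9 and 15.4 in controls and 15.02, 8.72 and 8.86 in iSM KO mice, and overlapped. The exact two-sided permutation p was 0.1 for Jag2, the smallest possible, and 0.2 for Dll1 (0.333 for both after adjustment over 10 genes).

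With the mean log2 level of the endothelial markers as a covariate in edgeR, an alternative chosen after the data were seen, Jag2 had a log2 fold change of −1.64 (adjusted p = 0.00193) and Notch2 of 0.52 (adjusted p = 0.0484). Dll1 was at −0.71 (SE 0.22, adjusted p = 0.126) and Notch3 at −0.31 (SE 0.11, adjusted p = 0.165) in this fit, and were no longer called. Without the covariate Dll1 was at −1.23 (SE 0.29) and Notch3 at −0.34 (SE 0.08), so that the Notch3 estimate moved little while its SE rose. With the covariate, Notch1 and Notch4 were at 0.08 and 0.13 on the log2 scale, on the other side of 0 from their unadjusted values. The covariate was 4.17 to 5.19 in controls and 3.24 to 4.67 in iSM KO libraries, and is thus partly confounded with group.

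Around the 10 genes, 45 further genes of the pathway were listed, of which 39 could be tested. Of these, 1 was higher (Neurl1a) and 1 lower (Psen2) at an adjusted p under 0.05 in edgeR, and 37 did not pass, with a median log2 fold change of 0.02. The shares called among all tested genes were 4.26% higher and 3.3% lower. Among the 12 ubiquitin ligases and endocytic regulators, Neurl1a, which encodes an E3 ligase that promotes endocytosis of Notch ligands, had 5.97, 5.05 and 4.74 CPM in controls and 10.7, 12.5 and 11.5 CPM in iSM KO mice. Every iSM KO library had more than the highest control, and the log2 fold change was 1.14 (SE 0.13, adjusted p = 0.00135 in edgeR). It passed the threshold on leaving out each of the 6 libraries, with values from 1.07 to 1.24.

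Receptor processing genes showed 1 call among 10, which was lower in iSM KO, where 3.3% of all tested genes were called lower. Psen2, a catalytic subunit of gamma-secretase, had 12.8, 13.1 and 12.8 CPM in controls and 10.6, 9.49 and 8.73 CPM in iSM KO mice. Its groups did not overlap, and it fell by 0.43 on the log2 scale (SE 0.11, adjusted p = 0.0443 in edgeR). The call was lost on leaving out any 1 library (adjusted p 0.0645 to 0.173) and with no filter on low counts (0.0508). Psen2 was also not called in edgeR with the replicate block (adjusted p = 0.115) or the endothelial covariate (adjusted p = 0.0739).

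No gene of the nuclear complex (9 tested) or of glycosylation (5 tested) passed the test. Rbpj, the DNA-binding partner of the Notch intracellular domain, had 84.7, 74.0 and 75.4 CPM in controls and 89.8, 85.5 and 81.6 CPM in iSM KO mice. These overlapped, with a log2 fold change of 0.13 (SE 0.08, adjusted p = 0.373 in edgeR).

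Other targets did not pass either. Hey2, a Hey gene of arterial smooth muscle, had 61.1, 54.7 and 48.0 CPM in controls and 50.2, 51.1 and 56.2 CPM in iSM KO mice, all within the control range (log2 fold change −0.06, adjusted p = 0.772 in edgeR). Hes1, a repressor induced by many receptors, had 9.64, 11.3 and 11.8 CPM in controls and 20.2, 8.17 and 8.21 CPM in iSM KO mice. Only iSM KO 1 was above the controls, and both other iSM KO mice were below them (log2 fold change 0.16, adjusted p = 0.806 in edgeR). Without iSM KO 1 the value was −0.42 (adjusted p = 0.181).

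Nrarp, a feedback inhibitor of Notch that binds the RBPJ complex, had 3.70, 7.36 and 2.22 CPM in controls and 1.25, 2.03 and 2.08 CPM in iSM KO mice. The groups just failed to overlap, and control 2 was far above the rest. Nrarp had a log2 fold change of −1.33 (SE 0.41, adjusted p = 0.0912 in edgeR) and it passed in DESeq2 (adjusted p = 0.00902) and in edgeR with no filter on low counts (0.00565). It was −0.74 without control 2, −1.64 without control 3 (adjusted p = 0.0425) and −0.54 with the endothelial covariate (adjusted p = 0.456). Its libraries within a group ranked as the endothelial sum did.

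Among the smooth muscle markers, Myh11 (log2 fold change 0.21, adjusted p = 0.333) and Acta2 (−0.14, adjusted p = 0.660) did not pass in edgeR. Myocd, the coactivator of the contractile program, had 216, 206 and 162 CPM in controls and 329, 296 and 290 CPM in iSM KO mice, and rose by 0.65 on the log2 scale (adjusted p = 0.0109 in edgeR, 0.0510 without iSM KO 1). Des, which encodes the intermediate filament desmin, rose by 1.24 (adjusted p = 0.00381 in edgeR). Both thus moved in the direction of Notch2 and opposite to Notch3, while 6 of the 8 smooth muscle markers did not pass. A relation of these markers to either receptor was not tested. Of all tested genes, 4.26% were called higher and 3.3% lower. Among adipocyte markers, Adipoq (log2 fold change −3.93), Plin1 (−3.35) and Cidec (−3.50) were lower, with adjusted p of 0.0147, 0.0277 and 0.0438 in edgeR. Calls of these 3 genes were lost on leaving out iSM KO 1 or iSM KO 2 (adjusted p 0.061 to 0.167), and Plin1 and Cidec also lost theirs without control 2 (0.0531 and 0.0945) or control 3 (0.0662 and 0.0868). Cidec was also not called without iSM KO 3 (0.0713), and in limma-voom none of the 3 was called (adjusted p 0.0941 to 0.251).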

How the data were processed

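Aortic RNA of 6 mice was sequenced as paired-end libraries after ribosomal RNA depletion. With Illumina DRAGEN, the authors mapped reads to Ensembl release 101 (mm10), and they deposited estimated counts per gene, not normalized. Between 10.9% and 12.2% of values in a library were not whole, and how reads matching several genes were shared, and whether strand was used, is not given in the sources used here. Groups and replicates were taken from the labels.

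Counts were rounded. The 16565 genes that exceeded 10 counts in every library of either group entered the edgeR 4.0.16 fit, run in R 4.3.3 (TMM, glmQLFit, glmQLFTest, two-sided, 6 libraries, no covariate) with Benjamini-Hochberg adjustment. The study's methods name DESeq2 for this test. Calls use an adjusted p under 0.05, alone or with a fold change over 2. Gene lengths are summed exon bases from GENCODE M21 on GRCm38, to which 16534 of the tested genes matched. These lengths can exceed the longest transcript, as for Notch1 (14232 and 9488 bases) and Jag2 (6965 and 5106 bases). Transcripts were compared with blastn 2.17.0. Shares and ratios were compared with exact permutation tests.

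The members and lists were chosen with earlier results of these data known. All 10 members are named. Of the other pathway genes, Rbpj, Hes1, Hey2 and Nrarp are named always, and of the markers Myh11, Acta2, Pecam1 and Cdh5, with any other only where called. Erg and Gm42819 fall outside this rule and were chosen after their values were seen, and genes overlapping a member are named from the annotation. Alternatives were DESeq2 1.42.0, limma-voom 3.58.1, DESeq2's size factors, no count filter, filterByExpr, a replicate block and omission of single libraries. For the shares, the longest transcript was also used as gene length. Chosen after seeing the data were the endothelial markers as covariate or denominator. Scripts were tested on simulated data. Depth ranged from 24911609 to 40460467 counts, and no pair of libraries differed by as little as sampling noise. By chi-square per degree of freedom over genes, pairs of controls differed by 47.8 to 70.7 and pairs of iSM KO libraries by 12.2 to 19.5. A control and an iSM KO library differed by 51.8 to 81.5, a range that overlaps that of the control pairs. No adjustment was made for the 10 members alone.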

Additional observations from a re-analysis of the deposited data

How the results depend on the processing

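Jag2 and Neurl1a passed the threshold in every fit run. No filter on low counts gave 4 other pathway genes lower, 863 of all genes lower and 349 lower with a fold over 2, and DESeq2 gave 3 other pathway genes lower. The filterByExpr filter left 0 members higher.

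Same-numbered control and iSM KO libraries did not deviate together (correlations of −0.13, −0.05 and −0.11), which gave no sign that the numbers pair the mice. With 3 libraries a group, whose deviations sum to 0, this check cannot exclude a pairing. With the replicate block, 0 members were higher and 1 lower (1 with a fold over 2), 0 other pathway genes were lower, and 457 of all genes were higher and 318 lower. No sample of the 3 pairs correlated best with its own number.

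With the endothelial covariate, 1 member was lower (1 with a fold over 2), 0 other pathway genes were lower, and of all genes 410 were higher, 270 lower and 129 lower with a fold over 2. The sign changed for Notch1 (0.082), Notch4 (0.13), Jag1 (0.060), Hey1 (−0.0015), Heyl (0.11), Hes1 (−0.41) and Hey2 (0.034).

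Leaving out 1 library gave 0 to 1 members higher, 1 to 2 lower and 1 to 2 lower with a fold over 2, 0 to 1 other pathway genes lower, and among all genes 313 to 764 higher and 203 to 638 lower, or 162 to 243 and 128 to 317 with a fold over 2. The log2 fold change crossed 0 for Heyl (−0.13 to 0.14, positive without control 1 or iSM KO 1 at 0.075), Hey2 (−0.14 to 0.035, positive without control 1), Jag1 (−0.19 to 0.035), Hey1 (−0.0093 to 0.23) and Acta2 (−0.24 to 0.038), each without control 2, and Hes1 (−0.42 to 0.38, negative without iSM KO 1), none of which was called. The cause of these changes was not tested. With 3 mice a group, counting error was largest for Dll4 (CV 9.79% in controls and 12.5% in iSM KO), followed by Hey1 in controls (9.02%) and Jag2 in iSM KO (9.39%).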
